A study of Mus musculus with 9 samples.

Results

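The genes described here are those that place, remove and read methyl groups on cytosine in DNA. They were chosen by name as Dnmt1, Dnmt3a, Dnmt3b, Tet1, Tet2, Tet3 and Uhrf1, which are 7 of the 21835 genes with transcripts in the mRNA table. All 69 of their annotated transcripts were listed in that table, and the FPKM of the transcripts of a gene were added up to a gene sum. FPKM is a level per length of transcript, so gene sums can be compared between genes, although they also count short and noncoding transcripts. None of the 7 gene sums passed the test for a change after complete Freund's adjuvant (CFA), on either day. The values below give how large a change the 9 libraries leave room for, and where single libraries and single isoforms stood apart.

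RNA was sequenced from the trigeminal ganglion (TG), which holds the cell bodies of the sensory neurons of the face, in a mouse model of temporomandibular joint (TMJ) inflammation. All mice were wild-type males, described in the methods as C57BL/6 and 8 weeks old. They received 10 µl of saline (saline replicates 1 to 3) or 10 µl of CFA at 5 mg/ml into the TMJ under isoflurane. CFA-injected mice were sampled on day 3 (CFA3D replicates 1 to 3) or day 6 (CFA6D replicates 4 to 6), and the labels place the saline libraries on day 3. There is therefore no day 6 saline group, and time and CFA cannot be told apart in the comparison of CFA6D with saline. Each library pooled unilateral punches from 3 mice, and each group has 3 such pools. Because punches of mixed cells were used, fewer cells of a type and less RNA per cell cannot be told apart.

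In mammals most DNA methylation lies on cytosines that are followed by guanine (CpG). Dnmt3a and Dnmt3b add methyl groups to unmethylated DNA, while Dnmt1 copies the methylation of the old strand onto the new strand after replication. Uhrf1 binds the half-methylated sites left by replication and brings Dnmt1 to them. The Tet enzymes oxidise methylcytosine, the first step of its removal. Neurons no longer divide, and Dnmt3a and the Tet enzymes are known to be active in them.

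The estimated depth was 30.0 to 42.2 M read pairs per library, from the worth of 1 read pair in the FPKM values. Summed levels of marker lists put neurons (8 genes, 2100 to 3090 FPKM), satellite glia (4 genes, 570 to 732 FPKM) and Schwann cells (5 genes, 2580 to 3450 FPKM) in every library, as the tissue label says. Some libraries stood apart. CFA6D replicate 6 lay at 66.4 on the first principal component, where the other libraries lay between -21.4 and 3.68. All 8 genes of a marrow and neutrophil list were highest there, with a sum of 2650 FPKM against 24.1 to 133 FPKM in the other libraries. Saline replicate 3 held 10600 FPKM of 4 pituitary hormone genes, against 8.67 to 1110 FPKM elsewhere. Saline replicate 2 held 56.0 FPKM of 4 adipocyte genes, against 5.43 to 9.73 FPKM elsewhere, and 119 FPKM of 4 muscle genes, against 0.77 to 45.1 FPKM.

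The order of the mean gene sums was Dnmt3a, Tet3, Tet2, Dnmt1, Tet1, Dnmt3b and Uhrf1. Dnmt3a, at a mean of 12.7 ± 1.26 FPKM (SD, n = 9), exceeded 73.0% of the tested gene sums. Tet3, Tet2 and Dnmt1 followed at 10.0, 9.72 and 7.84 FPKM, and these neighbours were not separated in every library, since Tet3 was above Tet2 in 8 of 9 and Tet2 above Dnmt1 in 8 of 9. Dnmt3a was above Tet3 in 9 of 9 libraries, although the lowest Dnmt3a value (11.2 FPKM) was below the highest Tet3 value (11.3 FPKM). Tet1, at 4.28 FPKM, lay below Dnmt1 and above Dnmt3b in 9 of 9 libraries with no overlap of the ranges. Dnmt3b (0.796 FPKM) and Uhrf1 (0.719 FPKM) were low, exceeding 15.8% and 14.8% of the tested gene sums, and Dnmt3b was the higher of these in 7 of 9 libraries. The sums include short and noncoding transcripts, whose share differs between genes. For the long coding transcripts alone, the mean was 6.49 FPKM for Dnmt1 (4 transcripts) and 5.74 FPKM for Dnmt3a (2 transcripts). For Tet3 it was 5.91 FPKM for Tet3-202 and 1.39 FPKM for Tet3-203. Tet2-201 was at 3.40 FPKM and Tet1-206 at 0.882 FPKM. Dnmt3a was thus not the highest by that measure. These values do not cover the same number of transcripts of each gene, so they are not a ranking of the genes. The plot of gene sums by library shows the order of the sums.

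**Figure D1:**
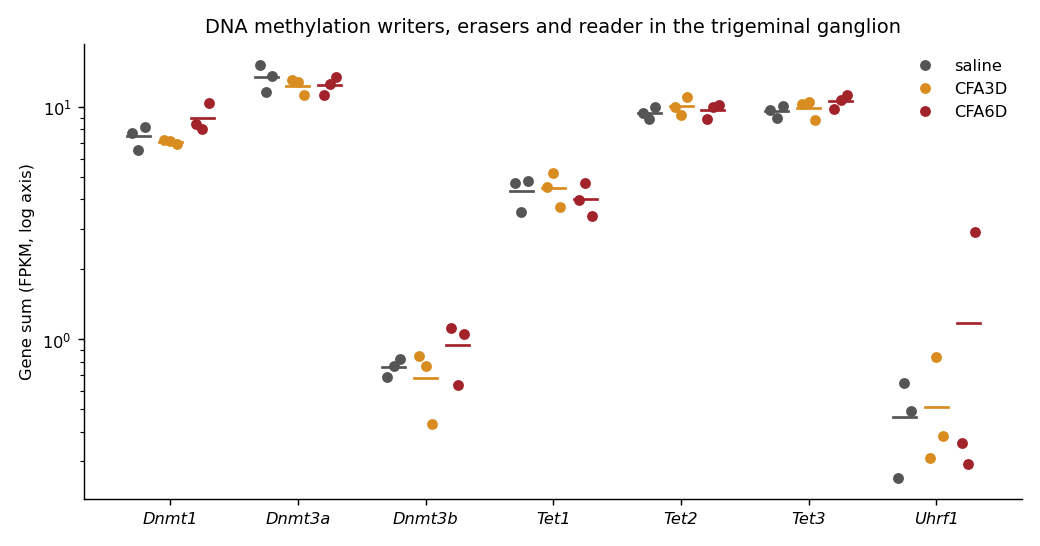
Gene sums of the 7 genes in FPKM on a log axis, with 1 point per library and a bar at the mean of each group (n = 3 pools). Points of the 3 groups overlap for every gene except that the CFA6D values of Dnmt1 lie above its CFA3D values, and 1 CFA6D library (replicate 6) holds the Uhrf1 value of 2.89 FPKM.

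The first question was whether these genes changed during TMJ inflammation, on day 3, on day 6 or between the days. Gene sums were compared as log2(FPKM + 0.1) in limma, with all 9 libraries in a single fit of the 3 groups. For a call, the unadjusted p had to be under 0.05, the cutoff of the study, and the log2 fold change 1 or more in either direction. On CFA3D against saline, 0 of 7 genes were called, where 0.341% of the 16110 gene sums tested were called, and 0 of 7 had an unadjusted p under 0.05, against 4.45% of all gene sums. On CFA6D against saline, 0 of 7 were called (0.596% of all gene sums) and 0 of 7 had an unadjusted p under 0.05 (11.1% of all). Between CFA6D and CFA3D, 0 of 7 were called (0.782% of all), and 1 of 7, Dnmt1, had an unadjusted p under 0.05 (7.41% of all). The median log2 fold change of the 7 genes was 0.04, 0.14 and 0.10 in these comparisons, beside 0.05, 0.03 and -0.02 over all gene sums tested. None of the 7, and no gene sum of the whole table, had a Benjamini-Hochberg adjusted p under 0.05 in limma. CFA3D and CFA6D were compared with the same 3 saline libraries, so those comparisons are not independent of each other.

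**Figure D2:**
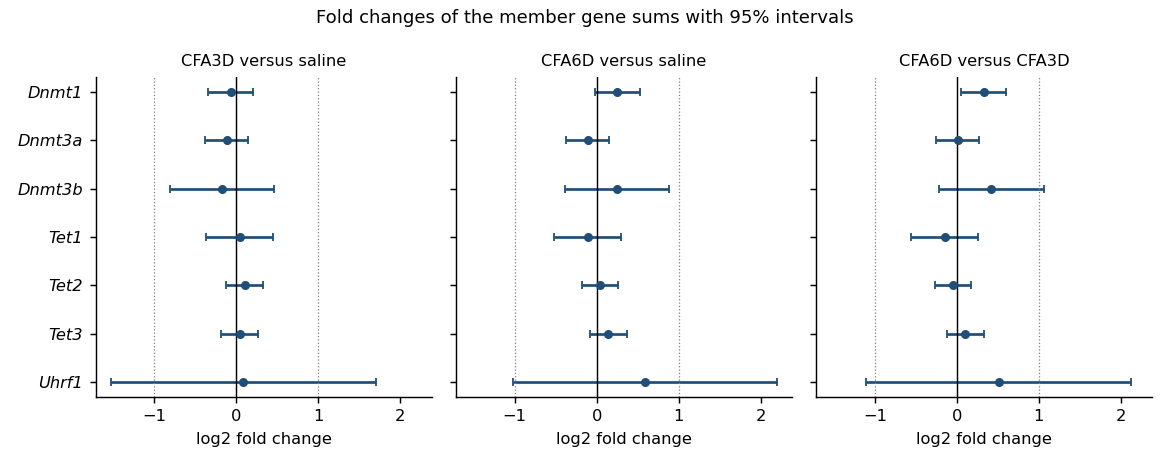
Log2 fold changes of the gene sums on the log2(FPKM + 0.1) scale in the 3 comparisons, with 95% confidence intervals from limma (n = 3 pools per group). Dotted lines mark a log2 fold change of 1 in size. The intervals of Dnmt1, Dnmt3a and the Tet genes lie inside these lines in every panel, while those of Uhrf1 reach past them in every panel.

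Among the writers, Dnmt1, which maintains methylation, lies on chromosome 9 (GRCm38, 20907209 to 20959888, minus strand). Its gene sum was 7.71, 6.54 and 8.23 FPKM in saline replicates 1 to 3. It was 7.18, 7.16 and 6.91 FPKM in CFA3D replicates 1 to 3, and 8.47, 8.01 and 10.4 FPKM in CFA6D replicates 4 to 6. The CFA3D libraries were close together and inside the saline range, and every CFA6D library lay above every CFA3D library. Such a split of the days was not counted over all gene sums. The group means were 7.49 ± 0.867, 7.09 ± 0.15 and 8.96 ± 1.26 FPKM (SD, n = 3 each).

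The log2 fold change of Dnmt1 was -0.07 on CFA3D (95% interval -0.35 to 0.20) and 0.25 on CFA6D (-0.02 to 0.53), both against saline. The difference of CFA6D from CFA3D was 0.33 (SE 0.12, 95% interval 0.05 to 0.60), a fold of 1.25, with an unadjusted p of 0.0255 and an adjusted p of 0.642 in limma. It did not reach the fold minimum for a call. Dnmt1 was highest in CFA6D replicate 6, the library with the marrow and neutrophil genes, and without it the difference between the days was 0.22 with an unadjusted p of 0.111 in limma. In that library 10 of 11 genes of a proliferation list were at their highest, and their sum was 39.5 FPKM against 9.26 to 12.2 FPKM in the other libraries. The part of these cells in the Dnmt1 difference was not tested. The estimated read pairs behind Dnmt1 were 918 to 1918 per library.

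The isoforms of Dnmt1 differed far more between libraries than its gene sum did. Dnmt1-201 (ENSMUST00000004202, 1620 codons) starts at an upstream first exon (chromosome 9, 20952708 to 20952979). Dnmt1-203 (ENSMUST00000178110, 1501 codons) and Dnmt1-207 (ENSMUST00000216540, 1502 codons) start at a downstream first exon that begins at 20951846 and ends at 20952623 or 20952605. The latter transcripts hold less than 10% of the gene sum each and were singled out after their values had been seen.

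Dnmt1-201 differs from the other isoforms at the end of the first exon. In the GENCODE transcripts the first exons read as follows (capitals) before the shared second exon (lower case, chromosome 9, 20942583 to 20942619).
Dnmt1-201: CCATGTCCGCAGGCGgctcaaagacttgga
Dnmt1-203 and Dnmt1-207: AGTGAGGGATGGCAGgctcaaagacttgga

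Dnmt1-207 and Dnmt1-203 in turn differ by 3 bases at the start of exon 5, which has 79 bases in Dnmt1-207 and 76 in Dnmt1-203. The extra bases are in capitals.
Dnmt1-207: acagtgacaccctttCAGttgaaacttcac
Dnmt1-203: acagtgacaccctttttgaaacttcac

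Of the 5543 exonic bases of Dnmt1-207, 5540 also lie in Dnmt1-203 and 4783 (86.3%) in Dnmt1-201, so most reads of these transcripts can come from any of them. Beside the 3 bases, the pair differs in the first exon, which is 760 bases long in Dnmt1-207 and 778 in Dnmt1-203, and in the last exon, which is 41 and 353 bases long.

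Dnmt1-201 was at 6.07, 5.22 and 6.61 FPKM in saline replicates 1 to 3, at 3.19, 5.49 and 5.80 FPKM in CFA3D replicates 1 to 3, and at 6.82, 3.31 and 4.84 FPKM in CFA6D replicates 4 to 6. Dnmt1-207 was listed at 0 in 6 libraries, and at 1.15 FPKM in CFA3D replicate 1, 1.80 in CFA6D replicate 5 and 2.28 in CFA6D replicate 6. Dnmt1-203 was at 1.28, 1.23 and 1.79 FPKM in those same libraries, and at 0.21 to 0.321 FPKM in the other 6. So 3 of the 6 CFA libraries, and no saline library, listed the downstream-exon isoforms high, and in these 3 libraries Dnmt1-201 was at its lowest. How many genes show such a split of isoforms between libraries was not counted, so the tally is a description.

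As a share of the coding transcripts that span the gene, the downstream-exon isoforms held 3.45%, 4.70% and 3.07% in the saline libraries, 43.3%, 5.53% and 3.54% in CFA3D replicates 1 to 3, and 3.63%, 47.8% and 45.7% in CFA6D replicates 4 to 6. The libraries thus fell into a low and a high set, with none between 5.53% and 43.3%. The sum of these coding transcripts stayed between 5.48 and 8.91 FPKM. The reads themselves were not analysed here, and how far the division of shared reads among these transcripts contributes was not tested.

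**Figure D3:**
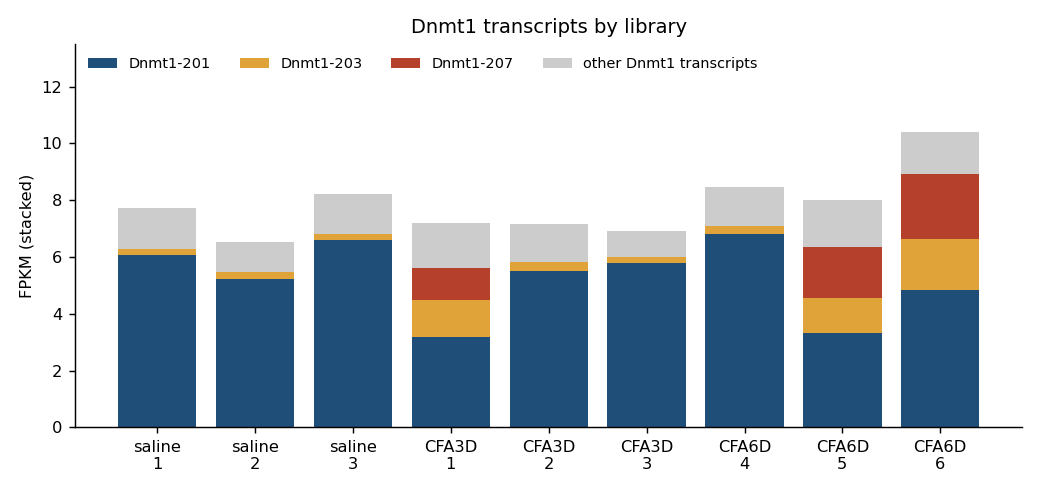
FPKM of the Dnmt1 transcripts in each library, stacked to the gene sum. Dnmt1-207 (red) and high Dnmt1-203 (yellow) appear in CFA3D replicate 1 and CFA6D replicates 5 and 6, where Dnmt1-201 (blue) is at its lowest, 3.19 to 4.84 FPKM.

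Across all 7 genes, 41 transcripts had a mean of at least 0.1 FPKM and were tested. On CFA3D 0 of 41 were called, where 2.19% of the 66562 transcripts tested were called. On CFA6D 0 of 41 were called (2.57% of all), and 0 of 41 between CFA6D and CFA3D (2.23% of all). None of the 41 had an unadjusted p under 0.05 in limma in any of these comparisons. The nearest was Dnmt1-203 on CFA6D against saline, with a log2 fold change of 1.56 (SE 0.70, unadjusted p = 0.0543, adjusted p = 0.741 in limma). Dnmt1-207 followed at 2.94 (SE 1.33, unadjusted p = 0.0556, adjusted p = 0.743), a value that depends on the pseudocount because every saline library was at 0. Without CFA3D replicate 1 or without CFA6D replicate 4 both were called on CFA6D, with adjusted p-values of 0.65 to 0.78 in limma, and neither was called against saline when any other library was left out.

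The DNA before the 2 first exons of Dnmt1 differs in CpG content. The lengths shown follow from the promoter window and from the gap between the exons. RefSeq (GRCm38.p6) gives the 250 bases before the upstream start (chr9:20952980-20953229, minus strand) and the 84 bases between the end of the upstream exon and the downstream start (chr9:20952624-20952707, minus strand), shown 5′ to 3′ with CpG sites in capitals.
Dnmt1 before the upstream first exon: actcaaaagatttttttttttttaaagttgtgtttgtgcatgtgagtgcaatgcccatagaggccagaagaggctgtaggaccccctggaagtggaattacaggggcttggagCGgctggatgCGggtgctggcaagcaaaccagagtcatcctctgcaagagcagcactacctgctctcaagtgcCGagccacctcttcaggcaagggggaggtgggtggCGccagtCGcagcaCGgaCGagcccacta
Dnmt1 between the first exons: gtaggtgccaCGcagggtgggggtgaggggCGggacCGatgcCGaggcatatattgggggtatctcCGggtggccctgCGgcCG

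Each stretch holds 7 CpG sites, in 250 and in 84 bases. The whole RefSeq promoter windows, which run from 250 bases before a start to 50 bases after it, held 12 CpG sites at the upstream start and 33 at the downstream start, where the median of all 32851 windows was 7. The downstream window also covers part of the upstream first exon. The remaining window, at the start of Dnmt1-202, held 2 CpG sites, and that transcript was at 0 FPKM in all 9 libraries.

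Dnmt3a, the writer with the highest gene sum, lies on chromosome 12 (3806007 to 3914443, plus strand). Its gene sum was 15.2, 11.6 and 13.6 FPKM in saline replicates 1 to 3, 13.0, 12.8 and 11.2 FPKM in CFA3D replicates 1 to 3, and 11.3, 12.6 and 13.4 FPKM in CFA6D replicates 4 to 6. The groups overlapped, and the highest value was in saline replicate 1. The log2 fold change was -0.12 on CFA3D (95% interval -0.38 to 0.14) and -0.11 on CFA6D (-0.37 to 0.15), with adjusted p-values of 0.997 and 0.767 in limma. The interval between CFA6D and CFA3D was -0.25 to 0.27.

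Dnmt3a makes a long and a short protein from different starts, and the TG listed almost only the long form. The long coding transcripts (Dnmt3a-201 and Dnmt3a-218, 908 codons each) held 76.9% to 86.7% of the estimated read pairs of the gene. The short coding transcripts (Dnmt3a-203 and Dnmt3a-205, 689 codons) were at 0.403 FPKM in CFA3D replicate 2, at 0.295 FPKM in CFA6D replicate 6, and at no more than 0.00898 FPKM in the other 7 libraries. These values stand for an estimated 37 and 26 read pairs, and for fewer than 2 elsewhere. The short transcripts overlap Dnmt3a-201 in position, and how far the division of shared reads among them contributes was not tested.

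The starts of the forms differ in CpG content. The stretches are from RefSeq (GRCm38.p6, plus strand), chr12:3806730-3806979 before the first RefSeq start of the long form and chr12:3891494-3891727 before the short form, again with CpG sites in capitals.
Dnmt3a before the long coding transcript: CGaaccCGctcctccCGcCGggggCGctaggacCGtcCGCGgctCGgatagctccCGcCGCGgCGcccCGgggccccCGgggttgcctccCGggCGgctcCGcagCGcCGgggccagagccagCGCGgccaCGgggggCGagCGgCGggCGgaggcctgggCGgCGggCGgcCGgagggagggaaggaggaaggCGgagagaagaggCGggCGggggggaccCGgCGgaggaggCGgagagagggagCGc
Dnmt3a before the short coding transcripts: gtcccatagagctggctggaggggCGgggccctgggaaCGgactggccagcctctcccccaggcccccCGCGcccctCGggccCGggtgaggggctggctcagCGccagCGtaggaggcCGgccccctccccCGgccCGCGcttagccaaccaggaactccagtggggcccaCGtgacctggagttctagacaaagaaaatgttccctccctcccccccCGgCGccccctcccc

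There are 38 CpG sites in the 250 bases before the long form and 15 in the 234 bases before the short form. The full windows held 46 and 18, and 1.6% and 29.7% of all promoter windows held at least as many. The members' windows as a whole ranged from 2 CpG sites (Dnmt1-202) to 57 (Tet2).

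Dnmt3b, the other writer of new methylation, lies on chromosome 2 (153649450 to 153687730, plus strand) and was low. Its gene sum was 0.688, 0.771 and 0.822 FPKM in saline replicates 1 to 3, 0.853, 0.768 and 0.433 FPKM in CFA3D replicates 1 to 3, and 1.12, 0.64 and 1.06 FPKM in CFA6D replicates 4 to 6. The groups overlapped. These sums rest on an estimated 36 to 91 read pairs per library, and the log2 fold changes were -0.17 on CFA3D (95% interval -0.81 to 0.46), 0.25 on CFA6D (-0.39 to 0.88) and 0.42 between the days (-0.22 to 1.06). Leaving out 1 library at a time gave 0.11 to 0.48 on CFA6D, with the ends from leaving out CFA6D replicates 4 and 5, and 0.16 to 0.65 between the days, with the ends from leaving out CFA3D replicate 3 and CFA6D replicate 5. The intervals of all 9 libraries end near a 2-fold change, and between the days just past it. At this depth and number of libraries they leave room for changes up to about that size. The only coding transcript with at least 10% of the sum was Dnmt3b-210, at 0.0501 to 0.299 FPKM, and transcripts with a retained intron held 54.4% to 69.6% of the FPKM but 16.0% to 26.5% of the read pairs.

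A few relatives of the writers can share sequence or position with them. The antisense RNA Dnmt3aos was at 0.683 to 1.12 FPKM, and Dnmt3bos at 0 to 0.112 FPKM. The duplicated gene Dnmt3c, known from male germ cells, was listed at 0 in 7 libraries and at most at 0.0187 FPKM, and the pseudogene Dnmt3a-ps1 was at 0 in all 9. The methods describe stranded libraries, and whether the counting used the strand is not given in the sources used here.

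Among the erasers, Tet1 lies on chromosome 10 (62804570 to 62908996, minus strand) and had the lowest level of the Tet genes. Its gene sum was 4.69, 3.53 and 4.82 FPKM in saline replicates 1 to 3, 4.51, 5.21 and 3.70 FPKM in CFA3D replicates 1 to 3, and 3.97, 4.71 and 3.38 FPKM in CFA6D replicates 4 to 6. Each group spread over more than 1 FPKM, and the groups overlapped. The log2 fold changes were 0.04 on CFA3D (95% interval -0.37 to 0.45), -0.11 on CFA6D (-0.52 to 0.30) and -0.15 between the days (-0.56 to 0.26).

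The Tet1 transcript with the highest FPKM was not a coding one. Tet1-202, a processed transcript of 1505 bases with no coding sequence, was at 1.45 to 2.92 FPKM and held 49.7% of the summed level. The coding transcript Tet1-206, of 14369 bases, was at 0.689 to 1.01 FPKM, yet it held 75.7% of the estimated read pairs because it is so much longer. Unlike the gene sum, Tet1-206 was higher in every saline library (0.97, 0.92 and 1.01 FPKM) than in any CFA library (at most 0.906 FPKM). Its log2 fold changes against saline were -0.10 on CFA3D and -0.27 on CFA6D (unadjusted p = 0.569 and 0.161 in limma). The share of all transcripts that separate so was not counted. The other long coding transcript, Tet1-201, was at 0 in all 9 libraries.

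Tet2, on chromosome 3 (133463679 to 133545139, minus strand), was at 9.38, 8.84 and 9.98 FPKM in saline replicates 1 to 3, at 9.96, 9.23 and 11.0 FPKM in CFA3D replicates 1 to 3, and at 8.88, 9.97 and 10.2 FPKM in CFA6D replicates 4 to 6. The groups overlapped almost fully. The log2 fold changes were 0.10 on CFA3D (95% interval -0.13 to 0.32), 0.04 on CFA6D (-0.18 to 0.26) and -0.05 between the days (-0.27 to 0.17). These intervals were the narrowest of the 7 genes together with those of Tet3, and they end well short of a 2-fold change.

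Transcripts with a retained intron made up 50.0% to 71.6% of the Tet2 FPKM and 27.8% to 56.2% of its read pairs. The share of read pairs was highest in CFA3D replicate 3 (56.2%), CFA6D replicate 5 (44.8%) and saline replicate 1 (41.8%), 1 library of each group, and it was 27.8% to 32.4% in the other 6. The coding transcript Tet2-201 went the other way, with 2.33, 2.82 and 2.84 FPKM in those libraries and 3.52 to 3.99 FPKM in the others. Tet2-209, a retained-intron transcript that overlaps Tet2-201 in position, was at 1.79, 1.20 and 0.936 FPKM there and at 0.258 to 0.422 FPKM in the others. How far the division of shared reads between these transcripts contributes was not tested. The retained-intron shares of the read pairs of Tet3 (13.3% to 16.9%), Dnmt3a (11.5% to 18.9%) and Dnmt1 (2.47% to 4.45%) were lower and spread less.

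Tet3, on chromosome 6 (83362373 to 83459084, minus strand), was at 9.68, 9.0 and 10.1 FPKM in saline replicates 1 to 3, at 10.3, 10.5 and 8.79 FPKM in CFA3D replicates 1 to 3, and at 9.75, 10.7 and 11.3 FPKM in CFA6D replicates 4 to 6. The groups overlapped, with the highest value in CFA6D replicate 6. The log2 fold changes were 0.04 on CFA3D (95% interval -0.19 to 0.26), 0.14 on CFA6D (-0.08 to 0.37) and 0.10 between the days (-0.12 to 0.33).

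Of the coding transcripts of Tet3, the main form was the one with the internal start. Tet3-202, with 5004 coding bases, was at 5.12 to 6.53 FPKM, and Tet3-203, with 5409 coding bases, at 1.03 to 2.30 FPKM. Tet3-202 was the higher in all 9 libraries, and the highest Tet3-203 value was in CFA6D replicate 6, where the other 8 libraries had 1.03 to 1.55 FPKM. The remaining coding transcript, Tet3-204, with 424 coding bases, was at 0 in 4 libraries and at most at 0.0333 FPKM.

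Uhrf1, the reader that recruits Dnmt1 behind the replication fork, lies on chromosome 17 (56303321 to 56323486, plus strand). Its gene sum was 0.253, 0.65 and 0.494 FPKM in saline replicates 1 to 3. It was 0.308, 0.841 and 0.386 FPKM in CFA3D replicates 1 to 3, and 0.357, 0.292 and 2.89 FPKM in CFA6D replicates 4 to 6. The value in CFA6D replicate 6 was far above all the others, and the other CFA6D libraries lay in the lower part of the saline range. The estimated read pairs were 322 in that library and 26 to 87 in the other 8.

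The log2 fold change of Uhrf1 on CFA6D against saline was 0.59 (SE 0.72, 95% interval -1.02 to 2.20), with an adjusted p of 0.80 in limma, and without CFA6D replicate 6 it was -0.35. Against CFA3D it was 0.51 (95% interval -1.11 to 2.12), and -0.43 without that library. On CFA3D against saline it was 0.08 (-1.53 to 1.70). The direction on day 6 thus rests on 1 library, and the intervals leave room for changes of over 2-fold both ways.

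In that library the proliferation list (39.5 FPKM against 9.26 to 12.2), the marrow and neutrophil list (2650 FPKM against 24.1 to 133) and a list of 3 bone genes (31.7 FPKM against 1.67 to 12.1) were all highest. The macrophage list of 6 genes was at 63.9 FPKM there, inside the range of 38.4 to 98.5 FPKM of the others. Saline replicate 1 and CFA6D replicates 4 and 5, with 119 to 133 FPKM of the marrow and neutrophil list, had Uhrf1 at 0.253 to 0.357 FPKM. The part of marrow or dividing cells in the Uhrf1 value was not tested.

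**Figure D4:**
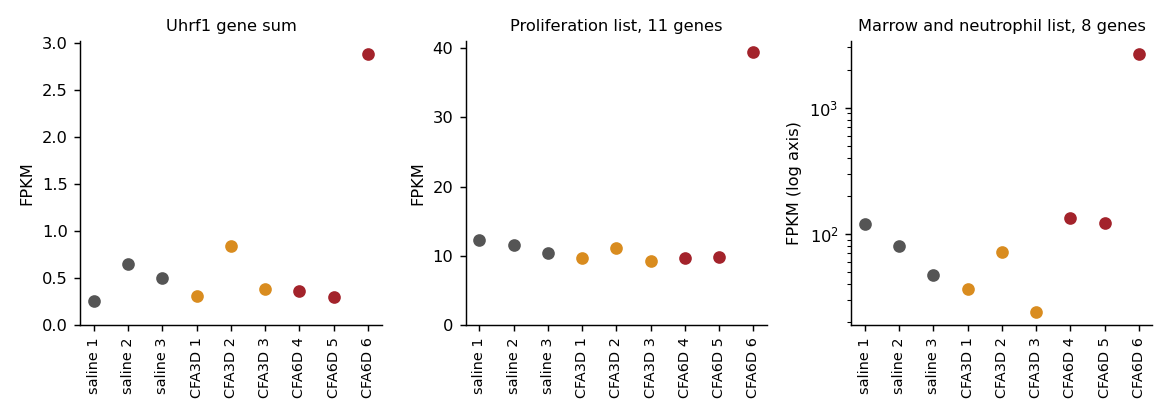
Gene sum of Uhrf1 (left), summed FPKM of 11 proliferation genes (middle) and of 8 marrow and neutrophil genes (right, log axis), with 1 point per library coloured by group. CFA6D replicate 6 is the highest point in each panel, at 2.89, 39.5 and 2650 FPKM.

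The Uhrf1 isoforms followed the same library. Uhrf1-202, Uhrf1-203 and Uhrf1-204, all coding, were at 0.627, 0.747 and 0.996 FPKM in CFA6D replicate 6. They were at 0 in 5, 6 and 6 of the 9 libraries, and outside CFA6D replicate 6 the highest values were 0.18, 0.226 and 0.266 FPKM. Uhrf1-201, the coding transcript with the upstream start, was at 0.0296 FPKM in CFA6D replicate 6 and at 0 to 0.322 FPKM in the others. At 26 to 87 read pairs for the whole gene, a 0 for an isoform was not distinguishable from a low level.

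A short motif known to be bound by E2F factors, which act on genes of DNA replication, was looked for in the promoter windows of the 7 genes because Uhrf1 and the proliferation genes were high in the same library. The letters searched were TTTCCCGC, TTTGGCGC and TTTCGCGC on both strands. At least 1 of them stood in 2 of the 12 windows, the window at the downstream start of Dnmt1 and that at the downstream start of Uhrf1, and in 1.84% of all 32851 windows. The Dnmt1 window held TTTGGCGC from base 33 to 40 as counted from the start, which is 0, and TTTCGCGC on the other strand from -219 to -212. The Uhrf1 window held TTTCGCGC from -185 to -178. These matches do not overlap each other, and they describe letters and not binding. The Dnmt1 matches lie inside its downstream and its upstream first exon, and the window at the start of Dnmt1-201 held none. Both windows held 33 CpG sites, where the median of all windows was 7. Each of the letter strings searched contains a CpG, so the shares of the members' windows and of all windows are not like for like. A link to E2F factors was not tested.

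The genes whose pattern over the 9 libraries was most like each of the 7 were taken from 13185 gene sums of at least 1 FPKM by Pearson's r of log2(FPKM + 0.1). The 9 points share their libraries and depth, and the best of so many genes is high by selection, so these values are a description. For Uhrf1 they were Spi1 (r = 0.973), Chil1 (0.955) and Itgal (0.947), of which Spi1 is a transcription factor of myeloid cells and Itgal an integrin of white blood cells. Spi1 was at 8.60 FPKM in CFA6D replicate 6 and at 1.53 to 3.33 FPKM in the other libraries.

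For Dnmt1 the most alike were Ylpm1 (r = 0.960), Col25a1 (0.946) and Slk (0.938). Slk, a protein kinase, was at 16.2, 16.0 and 18.9 FPKM in CFA6D replicates 4 to 6 and at 13.1 to 14.7 FPKM in the other 6 libraries, the same split of CFA6D from the rest that Dnmt1 showed less cleanly. For Dnmt3a they were Dido1 (0.945), Kdm5c (0.930), a histone demethylase, and Vps13b (0.919). For Dnmt3b they were Sipa1l3 (0.873), Cyren (0.866) and Syvn1 (0.849).

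For Tet1 the most alike were Phyhd1 (r = 0.962), Cul1 (0.962), a scaffold of ubiquitin ligases, and Acp6 (0.943). For Tet2 they were Tnik (0.935), Ccpg1 (0.892) and Megf10 (0.887). For Tet3 they were Ubp1 (0.971), Zfp384 (0.970) and Ptpn1 (0.957). Among the 7 genes themselves the highest r was 0.70, between Dnmt1 and Tet3, and the lowest was -0.52, between Dnmt3b and Tet2.

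The wider pathway was read from a list of 52 other genes in 5 roles, of which 48 reached a mean of 0.1 FPKM. Dnmt3l, the cofactor of the Dnmt3 enzymes in germ cells, was among those below it. On CFA3D 0 of 48 were called and 1 had an unadjusted p under 0.05, on CFA6D 0 and 5, and between the days 0 and 3. Over all gene sums, 4.45%, 11.1% and 7.41% had an unadjusted p under 0.05, so the shares of the list were near these or below them. The adjusted p was above 0.05 in limma for each of them. The median log2 fold change of the 48 was 0.04 on CFA3D, 0.00 on CFA6D and -0.02 between the days, beside 0.05, 0.03 and -0.02 over all gene sums tested. The genes below are given with values because they did not pass the call.

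The 10 genes listed under methyl-CpG binding include members of the MBD family, such as Mbd3, that do not bind methyl-CpG selectively. Mbd3 (18.9 FPKM) and Mbd2 (17.0 FPKM), both parts of the NuRD repressor complex, had the highest means. Zbtb38, a zinc finger protein that binds methylated DNA, was at 11.1, 10.2 and 9.20 FPKM in saline replicates 1 to 3 and at 18.4, 11.6 and 12.8 FPKM in CFA6D replicates 4 to 6. The CFA6D libraries all lay above the saline libraries, with CFA6D replicate 4 farthest, and the share of all gene sums that separate so was not counted. Its log2 fold change was 0.46 (SE 0.18, unadjusted p = 0.0279, adjusted p = 0.377 in limma). Without CFA6D replicate 4 it was 0.26, and with the transcript of the highest mean in place of the gene sum 0.07. Its relative Zbtb4 went from 13.2 ± 0.849 to 15.8 ± 0.604 FPKM (SD, n = 3), a log2 fold change of 0.25 with an adjusted p of 0.334 in limma. The glycosylase Mbd4, which removes bases damaged by deamination, was at 2.26 ± 0.0414 FPKM on CFA3D and 1.83 ± 0.151 FPKM on CFA6D, which is -0.30 on the log2 scale with an adjusted p of 0.67 in limma.

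Among the genes of active demethylation and repair, Gadd45g, one of the Gadd45 stress proteins linked to demethylation, had the smallest p of the list. It was at 3.97, 4.50 and 7.18 FPKM in saline replicates 1 to 3, at 6.05, 6.61 and 5.47 FPKM in CFA3D replicates 1 to 3, and at 7.90, 8.42 and 8.09 FPKM in CFA6D replicates 4 to 6. Every CFA6D library lay above every other library, and saline replicate 3, the library with the pituitary genes, was the highest saline value. How many of all gene sums separate in this way was not counted, so the separation is a description. The log2 fold change on CFA6D against saline was 0.68 (SE 0.19, 95% interval 0.24 to 1.11), a fold of 1.60, with an unadjusted p of 0.00615 and an adjusted p of 0.234 in limma.

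Its relative Gadd45b was at 6.00 ± 1.14 FPKM on CFA3D and at 4.27 ± 0.775 FPKM on CFA6D (SD, n = 3), a difference between the days of -0.48 on the log2 scale (unadjusted p = 0.0215, adjusted p = 0.642 in limma). Gadd45a had the highest mean of this role, 9.63 FPKM. Apex1, the endonuclease that cuts DNA at sites without a base, was at 6.98 ± 0.199 FPKM in saline and 5.48 ± 0.535 FPKM on CFA6D, which is -0.35 on the log2 scale with an adjusted p of 0.295 in limma.

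Of the genes listed under the methyl donor cycle, which supplies S-adenosylmethionine, Mat2a (52.4 FPKM) and Ahcyl1 (40.7 FPKM) had the highest means. Mat2a is the enzyme that makes S-adenosylmethionine. Gnmt, which uses up S-adenosylmethionine by methylating glycine, was at 1.04, 1.87 and 3.15 FPKM in saline replicates 1 to 3. It was at 0.935 to 1.02 FPKM in the CFA3D libraries and at 0.972 to 1.22 FPKM in the CFA6D libraries. The saline libraries spread over a 3-fold range, with the highest value in saline replicate 3, and the CFA libraries sat near the lowest saline value. The log2 fold change was -0.83 on CFA3D and -0.75 on CFA6D, with unadjusted p-values of 0.0299 and 0.046 and adjusted p-values of 0.997 and 0.438 in limma. Without saline replicate 3 they were -0.46 and -0.37, and without saline replicate 1 they were -1.21 and -1.13 and met the limits of the call, with unadjusted p-values of 0.00102 and 0.00159 in limma.

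The 10 tested partners of the writers and the 8 CXXC proteins and partners of the Tet enzymes had no unadjusted p under 0.05. Usp7, which stabilises Dnmt1 and Uhrf1 (30.5 FPKM), and Ehmt2, a histone methyltransferase (24.2 FPKM), were the highest partners of the writers. Ogt, the sugar transferase that binds the Tet enzymes (40.1 FPKM), and Idh1, which makes the 2-oxoglutarate they need (24.8 FPKM), were the highest of the others.

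**Figure D5:**
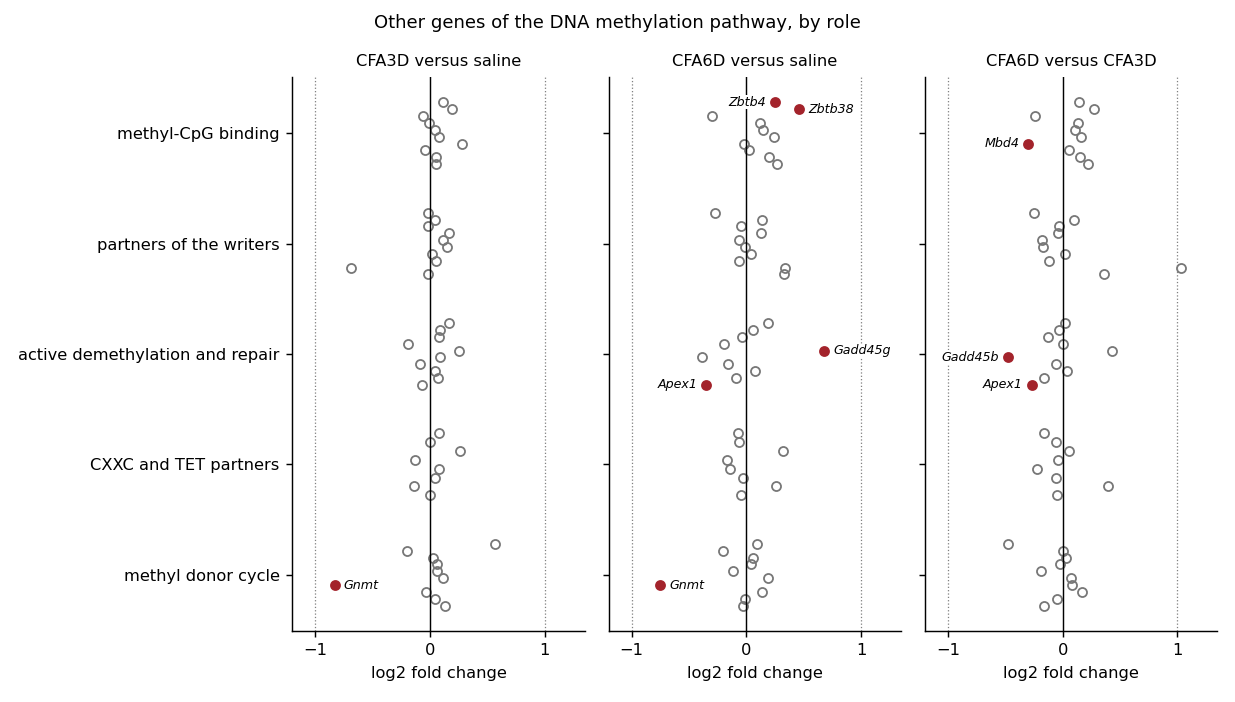
Log2 fold changes of the 48 tested genes of the pathway list in the 3 comparisons, grouped by role, with 1 point per gene. Filled points, with names, had an unadjusted p under 0.05 in limma (1, 5 and 3 genes), and dotted lines mark a log2 fold change of 1 in size.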

How the data were processed

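The authors deposited FPKM values per transcript for each of the 9 libraries, split into mRNA, lncRNA and other noncoding tables. Per the methods, ribosomal RNA was depleted, libraries were stranded, reads were trimmed (Trimmomatic) and mapped to GRCm38, and levels came from CLC Genomics Workbench, with no word of FPKM. The submitters' processing notes name Bowtie 0.12.2 and mm8 instead. The tool that made the FPKM values is not given in the sources used here. FPKM of a transcript depends on how the tool divided reads among isoforms. All per-sample columns were used (0 were left out).

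Of 102122 mRNA transcripts, 101539 were found in GENCODE release 21 for mouse (GRCm38). Gene sums add the FPKM of the transcripts of a gene. Depth and read pairs were estimated from the smallest common step of FPKM times length in each library, and 1 read pair in 1 kb was worth 0.0237 to 0.0333 FPKM. Differences were tested as log2(FPKM + 0.1) in limma 3.58.1 (R 4.3.3), with 3 groups, all 9 libraries and a trend in the mean, for features with a mean of at least 0.1 FPKM, and adjusted by Benjamini-Hochberg over the table. The fit was tested on simulated data. Fold changes of low genes are understated by the pseudocount. An exact permutation test of 3 against 3 cannot go below 0.1, so none is given. The p-values measure the spread between pools of 3 mice.

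The members, the pathway list and the marker lists were chosen with earlier results of these data known. Named were the 7 genes, transcripts with at least 10% of a gene sum or a call, the 3 most alike genes of each member, and pathway genes with an unadjusted p under 0.05 or among the 2 highest of their role. Alternatives were pseudocounts of 0.01 and 1, a mean of at least 1 FPKM, no filter, quantile normalization, fits of only the groups compared, no fold minimum, an adjusted p, each library left out, coding transcripts only, the highest transcript in place of the gene sum, and a replicate block. Leaving out saline replicate 3 and CFA6D replicate 6 together, and sums of estimated read pairs scaled to depth, were added after the data had been seen. The replicate numbers were checked for pairing by the correlation of deviations from the group means. Other steps ran in Python 3.11.15 with pandas 2.3.3, numpy 2.4.6 and matplotlib 3.10.9.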

Additional observations from a re-analysis of the deposited data

Results flagged for a closer look

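Of the 7 genes, only Dnmt1 had all CFA3D libraries below the saline mean and all CFA6D libraries above it. The share of all gene sums with this pattern was not counted, so it is a description. The lowest CFA6D value (8.01 FPKM) lay below the highest saline value (8.23 FPKM). The confidence intervals against saline in limma were -0.35 to 0.2 on CFA3D and -0.02 to 0.53 on CFA6D, and both include no change. The direct comparison of CFA6D with CFA3D gave a log2 fold change of 0.33, with an unadjusted p of 0.0255 and an adjusted p of 0.642 in limma. Groups of 3 libraries were too small to be screened for single outlying libraries.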

How the results depend on the processing

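With the fold minimum kept, no gene sum of the 7 was called in any comparison under the alternatives tried, and the lowest adjusted p over them was 0.424 in limma. With no fold minimum 1 gene, Dnmt1 between CFA6D and CFA3D, passed, and its log2 fold change there was 0.22 to 0.40 when a library was left out. It was 0.34 with coding transcripts only, 0.35 as estimated read pairs scaled to depth and 0.35 with quantile normalization (unadjusted p = 0.0369, 0.0218 and 0.01 in limma). Without saline replicate 3 and CFA6D replicate 6 together it was 0.22 (unadjusted p = 0.0957 in limma). With the transcript of the highest mean, Dnmt1-201, in place of the gene sum it was 0.03, with an unadjusted p of 0.911 in limma. Transcript calls depended on the setting. On CFA6D against saline, 1 member transcript was called with a pseudocount of 1, 1 with no filter and 1 with quantile normalization, 2 with only the groups compared, and 0 to 2 when a library was left out. Between the days 0 to 4 were called when a library was left out, the 4 without CFA6D replicate 4 (Dnmt1-203, Dnmt1-207, Dnmt3a-209 and Dnmt3a-217). Over all transcripts, 303, 1718 and 1557 of 66562 were called on CFA6D with a pseudocount of 1, quantile normalization and only the groups compared, and 1882 of 86632 with no filter. Without CFA3D replicate 1 and without CFA6D replicate 4, 1684 and 2033 of 66562 were called on CFA6D, and 1649 and 1775 between the days.

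Some fold changes turned sign under some settings, and the cause was not tested. Not all of these were near 0 in the main fit, which gave 0.25 for Dnmt1 and 0.59 for Uhrf1 on CFA6D, and 0.51 for Uhrf1 between the days. With the transcript of the highest mean in place of the gene sum, they were -0.31 for Dnmt1, 0.11 for Tet1, -0.09 for Tet2 and -0.03 for Uhrf1 on CFA6D, 0.28 for Dnmt3b, -0.16 for Tet2 and -0.20 for Uhrf1 on CFA3D, and -0.03 for Dnmt3a and 0.06 for Tet2 between the days. With coding transcripts only, they were -0.23 for Tet1 and -0.14 for Tet2 on CFA3D, -0.06 for Tet2 on CFA6D and 0.09 for Tet2 between the days. As estimated read pairs scaled to depth, they were -0.04 for Tet1 on CFA3D, -0.03 for Tet2 on CFA6D and -0.04 for Dnmt3a between the days, and quantile normalization gave -0.02 for Tet3 on CFA3D. Without saline replicate 3 and CFA6D replicate 6 together, they were 0.09 for Tet1 and -0.28 for Uhrf1 on CFA6D, and -0.04 for Dnmt3a and -0.43 for Uhrf1 between the days.

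Leaving out 1 library at a time, the values that turned sign ranged on CFA3D from -0.34 to 0.08 for Dnmt3b, -0.10 to 0.17 for Tet1, -0.01 to 0.12 for Tet3 and -0.28 to 0.33 for Uhrf1. On CFA6D they ranged from -0.25 to 0.01 for Tet1, -7.2e-05 to 0.10 for Tet2 and -0.35 to 1.12 for Uhrf1. Between the days they ranged from -0.06 to 0.08 for Dnmt3a, -0.11 to 0.01 for Tet2, -0.43 to 1.03 for Uhrf1 and -0.23 to 0.29 for Dnmt1-201. Of values that kept their sign, those against saline ranged from 0.14 to 0.33 for Dnmt1 on CFA6D, and for Dnmt3a from -0.22 to -0.03 on CFA3D and -0.21 to -0.02 on CFA6D.

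The replicate numbers of saline and CFA3D did not pair the libraries, since same-numbered libraries had correlations of their deviations of 0.0877, -0.078 and 0.0301. With the replicate number as a block, 0 member gene sums and 0 member transcripts were called on CFA3D, as without it. CFA6D shares no number with the other groups, and no paired fit was made there.

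Over the whole table, the calls behind the background shares moved with the pseudocount. At a pseudocount of 1, 9, 21 and 38 gene sums were called on CFA3D, on CFA6D and between the days, instead of 55, 96 and 126. Without saline replicate 3 and CFA6D replicate 6 together, 144 and 222 were called on CFA3D and CFA6D. Depth limits Dnmt3b and Uhrf1, and their isoforms, most.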
